A study of Mus musculus with 12 samples.

Results

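Cytosolic nucleic acid sensing was followed through 10 genes given by symbol: the RNA sensors Ddx58 (RIG-I), Ifih1 (MDA5) and Dhx58 (LGP2), their adaptor Mavs and the ubiquitin ligase Trim25, the DNA sensor Mb21d1 (cGAS) with its adaptor Tmem173 (STING), the Z-nucleic acid sensor Zbp1, and the kinases Tbk1 and Ikbke (IKK-epsilon). All 10 were among the 23329 genes listed, Mb21d1 under an older clone name (E330016A19Rik), and all 10 were among the 13038 genes that passed the filter on low counts. Stromal cells were grown from the small intestine of C57BL6/J mice, either embryos at E14.5 or adults. They were given LPS, a cell wall component of Gram-negative bacteria, at 10 µg/µl as written in the labels, or PBS as vehicle, for 6 h. Poly(A) RNA was sequenced in 3 libraries from each of 4 groups, named here embryonic PBS, embryonic LPS, adult PBS and adult LPS. Within a stage, PBS and LPS libraries with matching replicate numbers deviated together, and each such pair is called a culture.

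RIG-I and MDA5 bind viral or misplaced RNA in the cytosol and pass the signal to MAVS on mitochondria. cGAS binds DNA and makes a cyclic dinucleotide that activates STING. Both routes meet at the kinases TBK1 and IKK-epsilon, which phosphorylate interferon regulatory factors and so switch on interferon beta, and many of the sensors are themselves interferon-stimulated genes.

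The labels call the cells intestinal myofibroblasts, but they were a mixed culture used at early passages, and each embryonic culture came from pooled embryos. The fibroblast and myofibroblast markers (10 of 10 detected, among them Col1a1, Pdgfrb and Acta2) summed to between 21500 and 42600 CPM (counts scaled to library size with TMM factors) over the 12 libraries. The 15 macrophage markers were all detected, none at 0 in any library. They were listed as not known to respond to LPS, but some changed with it in embryonic cultures 1 to 3. Cx3cr1 was at 23.8, 26.4 and 271 CPM with PBS and at 5.99, 5.18 and 17.6 CPM with LPS. Ptprc was at 7.53, 9.76 and 59.2 CPM with PBS and at 19.6, 64.5 and 162 CPM with LPS. The sum of all 15 was 275, 514 and 3240 CPM in embryonic PBS cultures 1, 2 and 3. With LPS it was 218, 1140 and 2390 CPM in the same cultures. In adult cultures it was 207, 22.2 and 52.4 CPM with PBS and 222, 18 and 52.8 CPM with LPS. Embryonic culture 3 thus stood apart from the other cultures, while embryonic and adult culture 1 were close to each other. The 6 endothelial markers were high in adult culture 2 (1780 CPM with PBS and 1710 CPM with LPS) and adult culture 3 (376 and 346 CPM), against 9.54 to 37.1 CPM in the other libraries. Lymphocyte markers were at or near 0 (at most 1.39 CPM in sum, with Cd3e at 0 in 10 of 12 libraries). Counts on genes ranged from 18850224 to 32672370 per library (median 29738536), so that 3 counts, taken as the floor, were worth 0.0897 to 0.145 CPM.

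The promoter windows of the 3 members whose response to LPS differed between the stages in the edgeR fit with the replicate block (a term for each culture) are shown first. Windows of 250 bases before to 50 bases after the start (RefSeq, GRCm38.p6) were used for 7 of the 10 members. Dhx58 and Zbp1 had no window, and Tmem173 was left out. Capitals mark the core of the interferon-stimulated response element, GAAANNGAAA, searched on both strands. Each window is written 5′ to 3′ on the strand of its gene.
Ddx58, chr4:40239776-40240075, minus strand: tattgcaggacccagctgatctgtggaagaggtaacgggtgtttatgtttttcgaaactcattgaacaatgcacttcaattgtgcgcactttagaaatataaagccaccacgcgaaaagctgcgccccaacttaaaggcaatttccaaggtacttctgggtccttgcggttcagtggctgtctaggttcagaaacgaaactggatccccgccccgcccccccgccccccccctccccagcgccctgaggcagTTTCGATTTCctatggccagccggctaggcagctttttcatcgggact
Ifih1, chr2:62646206-62646505, minus strand: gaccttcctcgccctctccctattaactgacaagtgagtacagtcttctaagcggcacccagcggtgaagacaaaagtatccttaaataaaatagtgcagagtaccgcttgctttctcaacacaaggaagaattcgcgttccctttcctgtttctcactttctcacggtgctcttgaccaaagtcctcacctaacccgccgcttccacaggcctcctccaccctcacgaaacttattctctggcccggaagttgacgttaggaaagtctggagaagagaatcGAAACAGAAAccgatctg
Trim25, chr11:88999153-88999452, plus strand: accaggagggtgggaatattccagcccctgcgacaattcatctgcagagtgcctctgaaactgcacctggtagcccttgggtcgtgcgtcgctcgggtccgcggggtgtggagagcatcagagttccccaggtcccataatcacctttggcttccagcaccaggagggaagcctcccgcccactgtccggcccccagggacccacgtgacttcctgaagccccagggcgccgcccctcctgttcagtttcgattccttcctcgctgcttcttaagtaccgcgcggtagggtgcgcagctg
The core lay at bases 33 to 42 of the Ifih1 transcript, on the strand of the gene, and at bases 3 to 12 of Ddx58, on the opposite strand, counted from 1 at the start. These letters were not in the windows of Trim25, Mavs, Mb21d1, Tbk1 and Ikbke, while 3.44% of all 32851 promoter windows held them. The NF-kB consensus, also searched on both strands, was found in none of the 7 windows and in 8.46% of all windows, and no overlap of motifs arose.

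**Figure D1:**
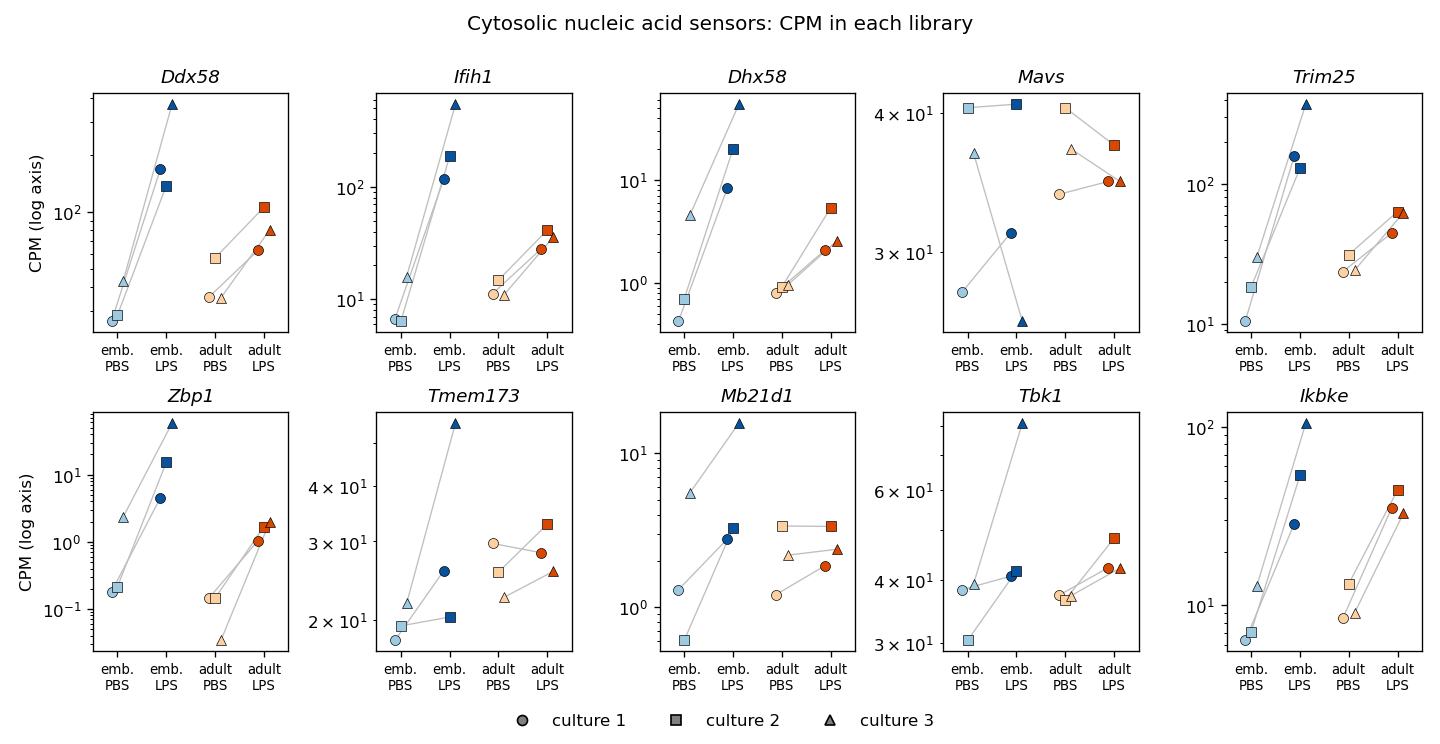
CPM of each of the 10 genes (log axis, scale set for each gene) in the 12 libraries, by group. Symbols give the culture number and grey lines join PBS and LPS of the same culture. Ifih1 reached 118 to 546 CPM in embryonic LPS and 28.2 to 41.2 CPM in adult LPS, while Mavs stayed between 26 and 40.7 CPM in all libraries.

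In embryonic stroma, LPS raised the RNA sensors Ddx58 and Ifih1, the ligase Trim25 and the kinase Ikbke. Of the 10 genes, 4 rose (Ddx58, Ifih1, Trim25 and Ikbke) and none fell at an adjusted p under 0.05 (edgeR quasi-likelihood test, Benjamini-Hochberg adjustment over all 13038 genes), where 2.67% of all genes rose. With the culture number as a replicate block, 7 rose (Dhx58, Zbp1 and Mb21d1 in addition) against 9.43% of all genes. The median over all 10 genes was 2.81 without the block and 2.7 with it on the log2 fold change scale, against 0 for all genes tested. Without the block, leaving out embryonic PBS culture 1 made the count 2 (Ifih1 and Trim25), against 95 of 13093 genes in either direction. Leaving out embryonic PBS culture 3 made it 6, against 255 of 13105 genes. With the embryonic groups fitted alone it was 0, where 4 of 12620 genes were called. In adult stroma, the same test called none of the 10, where 0.598% of all genes rose. An unadjusted p under 0.05 was reached by 5 of them, a level at which the share of all genes was not counted. DESeq2 called 2 (Zbp1 and Ikbke), against 294 of 13038 genes in either direction. Fitted on the adult groups alone, edgeR called 4 (Zbp1, Ikbke, Ifih1 and Trim25), against 227 of 12543 genes in either direction. With the replicate block, 6 rose in adult stroma (Ddx58, Ifih1, Dhx58, Trim25, Zbp1 and Ikbke), against 4.69% of all genes. Of the 6, Ifih1, Zbp1 and Ikbke passed without adult culture 1 or 3, and these and Ddx58 without adult culture 2. Over all genes, 270, 454 and 232 were called in either direction without adult culture 1, 2 and 3, against 808 with all cultures. The adult median was 1.04, against -0.01 for all genes. In bulk RNA of this kind, fewer cells of a type and less RNA per cell cannot be told apart.

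Ifih1 (chr2:62595618-62646255 in RefSeq, GRCm38.p6, as for the other genes) encodes MDA5, the sensor of long RNA duplexes. Its level was 6.66, 6.34 and 15.9 CPM in embryonic PBS cultures 1 to 3 and 118, 187 and 546 CPM with LPS. In adult cultures it was 11.2, 14.8 and 11 CPM with PBS and 28.2, 41.2 and 35.6 CPM with LPS. Every LPS library lay above every PBS library of its stage, and every embryonic LPS library lay above every adult LPS library. The log2 fold change was 4.88 (SE 0.61, edgeR adjusted p = 0.00306) in embryonic stroma, the largest of the 10 genes in that fit, and 1.5 (SE 0.54, adjusted p = 0.546) in adult stroma. With the block it was 4.73 (SE 0.19, adjusted p = 2.58e-06) and 1.5 (SE 0.17, adjusted p = 0.00198).

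Ddx58 (chr4:40203777-40239825) encodes RIG-I, which recognises the phosphorylated ends of viral RNA. It stood at 26.4, 28.4 and 43.3 CPM in embryonic PBS and at 169, 138 and 373 CPM in embryonic LPS. Adult cultures had 35.6, 57.2 and 35.2 CPM with PBS and 62.8, 106 and 80.5 CPM with LPS. The groups did not overlap within a stage, and adult LPS also lay wholly under embryonic LPS. The log2 fold change was 2.79 (SE 0.41, adjusted p = 0.0065) in embryonic and 0.97 (SE 0.38, adjusted p = 0.694) in adult stroma, and in edgeR the adult value passed only with the block (0.97, SE 0.15, adjusted p = 0.0079).

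Dhx58 (chr11:100694884-100704271) encodes LGP2, which lacks the signalling domains of the other RNA helicase sensors and modulates them. It was rare with PBS, at 0.422, 0.701 and 4.6 CPM in embryonic and 0.806, 0.915 and 0.955 CPM in adult cultures. LPS brought it to 8.31, 20.2 and 54.8 CPM in embryonic and 2.08, 5.38 and 2.55 CPM in adult cultures. The spread between embryonic cultures was wide, with culture 3 the highest under either treatment, yet each culture moved the same way. Without the block the log2 fold change was 3.86 (SE 0.95, adjusted p = 0.0672) in embryonic and 1.9 (SE 0.92, adjusted p = 0.98) in adult stroma. With the block it rose by 4.11 (SE 0.29, adjusted p = 6.98e-05) and by 1.79 (SE 0.32, adjusted p = 0.0179). DESeq2 called the embryonic value also without the block (3.87, adjusted p = 0.000179), and in edgeR without the block it ranged from 2.85 without embryonic LPS culture 3 to 5.62 without embryonic PBS culture 3.

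Trim25 (chr11:88999403-89020294) encodes a ubiquitin ligase best known for activating RIG-I. Embryonic PBS cultures had 10.4, 18.3 and 30.2 CPM and embryonic LPS cultures 157, 129 and 371 CPM. Adult cultures had 23.6, 31.2 and 24.1 CPM with PBS and 44.5, 63.4 and 62.3 CPM with LPS. As for Ddx58, no LPS library reached down to a PBS library of its stage, and no adult LPS library reached an embryonic one. Its log2 fold change was 3.48 (SE 0.48, adjusted p = 0.00488) in embryonic stroma and 1.11 (SE 0.44, adjusted p = 0.685) in adult stroma, where the block gave 1.1 (SE 0.19, adjusted p = 0.015).

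Mavs (chr2:131234063-131248025), the mitochondrial adaptor that RIG-I and MDA5 share, had log2 fold changes near 0 with LPS. It was at 27.6, 40.4 and 36.8 CPM in embryonic PBS and 31.2, 40.7 and 26 CPM in embryonic LPS. Adult cultures had 33.8, 40.4 and 37.1 CPM with PBS and 34.7, 37.4 and 34.7 CPM with LPS. All 4 groups overlapped, and the log2 fold change was -0.1 in embryonic (95% interval -0.5 to 0.3) and -0.06 in adult stroma (-0.46 to 0.34). With the block these intervals were -0.39 to 0.19 and -0.34 to 0.23.

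Mb21d1 (chr9:78430518-78443237) encodes cGAS, the enzyme that senses DNA in the cytosol. It was a rare transcript, with 1.3, 0.61 and 5.56 CPM in embryonic PBS and 2.77, 3.28 and 15.7 CPM in embryonic LPS. Adult cultures had 1.21, 3.37 and 2.18 CPM with PBS and 1.86, 3.35 and 2.38 CPM with LPS. LPS and PBS libraries overlapped in either stage, since embryonic culture 3 with PBS was higher than embryonic cultures 1 and 2 with LPS. The embryonic log2 fold change was 1.54 (SE 0.86, adjusted p = 0.644), and with the block it rose by 1.61 (SE 0.25, adjusted p = 0.00543). Without the block the value was 0.24 with embryonic LPS culture 3 left out and 2.92 with embryonic PBS culture 3 left out, and with the block it was 1.33 to 1.84 with a whole culture left out. The adult value was 0.17 (95% interval -1.73 to 2.07), and -0.38 to 0.82 with the block.

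Tmem173 encodes STING, the membrane protein that receives the cGAS product. It was at 18, 19.4 and 21.8 CPM in embryonic PBS and 25.8, 20.3 and 55.3 CPM in embryonic LPS. Adult cultures had 29.7, 25.6 and 22.5 CPM with PBS and 28.3, 32.8 and 25.7 CPM with LPS. The embryonic difference was largest in culture 3, and neither stage passed the edgeR test, with log2 fold changes of 0.77 (95% interval 0.08 to 1.47, adjusted p = 0.361) and 0.16 (-0.53 to 0.85, adjusted p = 1). With the block the edgeR adjusted p was 0.0951 and 0.796, while DESeq2 with the block called the embryonic value (0.63, adjusted p = 0.0325). Without embryonic LPS culture 3 and without the block the embryonic value was 0.2, and with the block it passed with embryonic culture 2 left out (0.94, adjusted p = 0.0207).

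Zbp1 (chr2:173206612-173218959) binds Z-form RNA and DNA and can start necroptosis. Embryonic PBS cultures had 0.181, 0.213 and 2.36 CPM, and embryonic LPS cultures 4.52, 15.2 and 58.7 CPM. Adult PBS libraries held only 4, 3 and 1 counts, while adult LPS libraries held 32, 55 and 46 (1.04, 1.69 and 1.99 CPM). LPS libraries were above PBS libraries throughout, and the pooled adult ratio was 14.9 (95% counting interval 7.34 to 35.2). The embryonic log2 fold change was 4.82 (SE 1.16, adjusted p = 0.0602), and with the block it rose by 4.99 (SE 0.33, adjusted p = 4.67e-05). The adult value of 3.85 (SE 1.33, adjusted p = 0.504) passed with the block (3.83, SE 0.51, adjusted p = 0.0044), and without it in DESeq2 (3.87, adjusted p = 0.0293) and in edgeR on the adult groups alone, but not in edgeR on all 4 groups. Without the block, DESeq2 called the embryonic value too (4.84, adjusted p = 7.72e-05), and in edgeR it ranged from 3.37 without embryonic LPS culture 3 to 7.02 without embryonic PBS culture 3.

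Tbk1 (chr10:121546455-121586794), the kinase that serves both adaptors, had smaller log2 fold changes with LPS than its relative Ikbke. Tbk1 was at 38.2, 30.4 and 39.2 CPM in embryonic PBS and 40.6, 41.6 and 81 CPM in embryonic LPS. Adult cultures had 37.3, 36.5 and 37.2 CPM with PBS and 42.2, 48.2 and 42.1 CPM with LPS. The LPS libraries lay above the PBS libraries in either stage, but neither passed the edgeR test, with log2 fold changes of 0.6 (95% interval 0.07 to 1.13, adjusted p = 0.343) and 0.26 (-0.27 to 0.78, adjusted p = 1). With the block the edgeR adjusted p was 0.0711 and 0.498, while DESeq2 with the block called the embryonic value (0.52, adjusted p = 0.0284). Without embryonic LPS culture 3 and without the block the embryonic value was 0.17, and with the block it passed with embryonic culture 1 left out (0.76, adjusted p = 0.0261).

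Ikbke (chr1:131254600-131279601) encodes the inducible kinase of the pair. It was at 6.36, 7.1 and 12.9 CPM in embryonic PBS and 28.5, 53.4 and 105 CPM in embryonic LPS. Adult cultures had 8.46, 13.2 and 9.07 CPM with PBS and 35.2, 44.3 and 32.8 CPM with LPS. Here the LPS groups of the stages overlapped, since embryonic culture 1 was lower than every adult culture. The log2 fold change was 2.82 (SE 0.46, adjusted p = 0.0102) in embryonic and 1.87 (SE 0.44, adjusted p = 0.131) in adult stroma, and 1.88 (SE 0.16, adjusted p = 0.000521) in adult stroma with the block.

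Counted by library, 7 of the 10 genes had all 3 embryonic LPS libraries above all 3 embryonic PBS libraries (7.58% of all genes tested), and the same 7 did so in adult stroma (9.10% of all genes). They were Ddx58, Ifih1, Dhx58, Trim25, Zbp1, Tbk1 and Ikbke. Counted by culture, LPS exceeded PBS in all 3 embryonic cultures for 9 genes, Mavs being the exception (23.0% of all genes), and in all 3 adult cultures for 7 genes (24.0% of all genes).

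**Figure D2:**
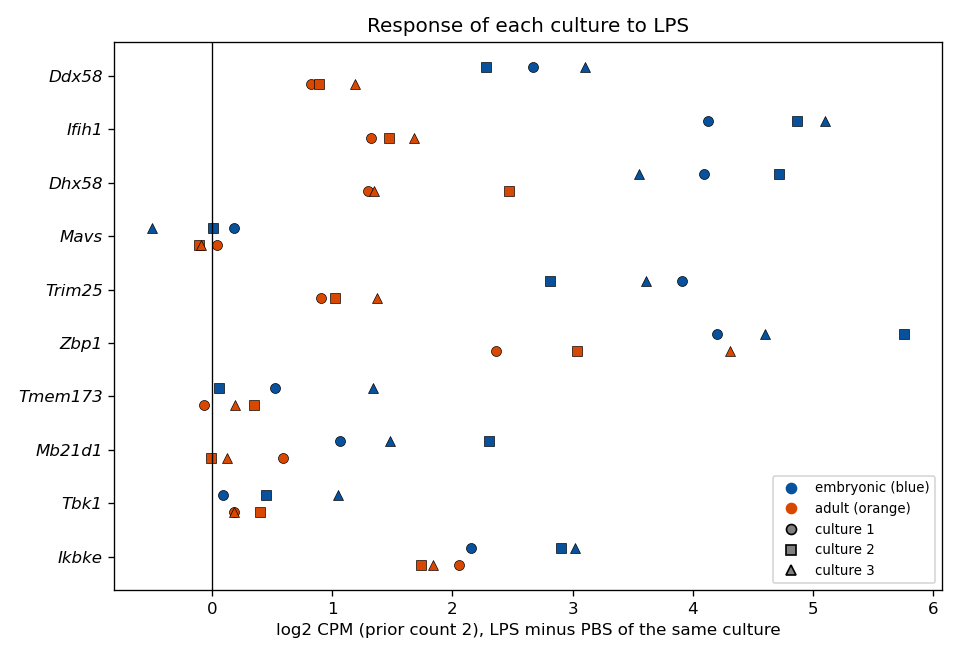
Difference in log2 CPM (prior count 2) between LPS and PBS of the same culture, for each gene and stage, with symbols for the culture number. The 3 embryonic values of Ifih1 (4.13 to 5.1) lay above the 3 adult values (1.32 to 1.68), while those of Zbp1, Tmem173, Tbk1 and Mavs overlapped between the stages.

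Whether the response differed between the stages was tested as the difference between the 2 log2 fold changes. Without the block none of the 10 genes passed, nor did any gene of the table (0% of all genes with a larger embryonic response). An unadjusted p under 0.05 was reached by 3 of the 10 (Ddx58, Ifih1 and Trim25), with no share of all genes counted at this level. DESeq2 and the likelihood ratio test called Ifih1, where each called 25 of 13038 genes in either direction. With the replicate block Ddx58, Ifih1 and Trim25 passed in edgeR, against 0.798% of all genes with a larger embryonic response. The embryonic response exceeded the adult one by 3.23 for Ifih1 (SE 0.24, adjusted p = 0.00119), by 2.34 for Trim25 (SE 0.27, adjusted p = 0.00904) and by 1.72 for Ddx58 (SE 0.21, adjusted p = 0.0105), all on the log2 scale. With both libraries of adult culture 1, 2 or 3 left out in turn, only Ifih1 still passed (adjusted p of 0.0133, 0.00936 and 0.00865). Over all genes, 48, 42 and 34 were then called in either direction, against 110 with all cultures. The values of Trim25 (2.25 to 2.46) and Ddx58 (1.65 to 1.81) kept their size.

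The other 7 genes did not pass the edgeR test of the difference with the block. The difference was 2.32 for Dhx58 (95% interval 1.28 to 3.35, adjusted p = 0.0789), 1.39 for Mb21d1 (0.55 to 2.23, adjusted p = 0.233) and 0.83 for Ikbke (0.3 to 1.35, adjusted p = 0.269). DESeq2 with the block called Dhx58 (2.39, adjusted p = 2.32e-05) besides Ddx58, Ifih1 and Trim25, where it called 270 of 13038 genes in either direction. Zbp1 had the widest interval (1.16, from -0.78 to 3.09), and its adult PBS libraries were near the floor. For Tmem173, Tbk1 and Mavs the intervals were -0.21 to 1.19, -0.25 to 0.8 and -0.45 to 0.36. The 3 embryonic culture differences lay above the 3 adult ones for Ddx58, Ifih1, Dhx58, Trim25, Mb21d1 and Ikbke, that is 6 of the 10 genes against 9.66% of all genes.

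**Figure D3:**
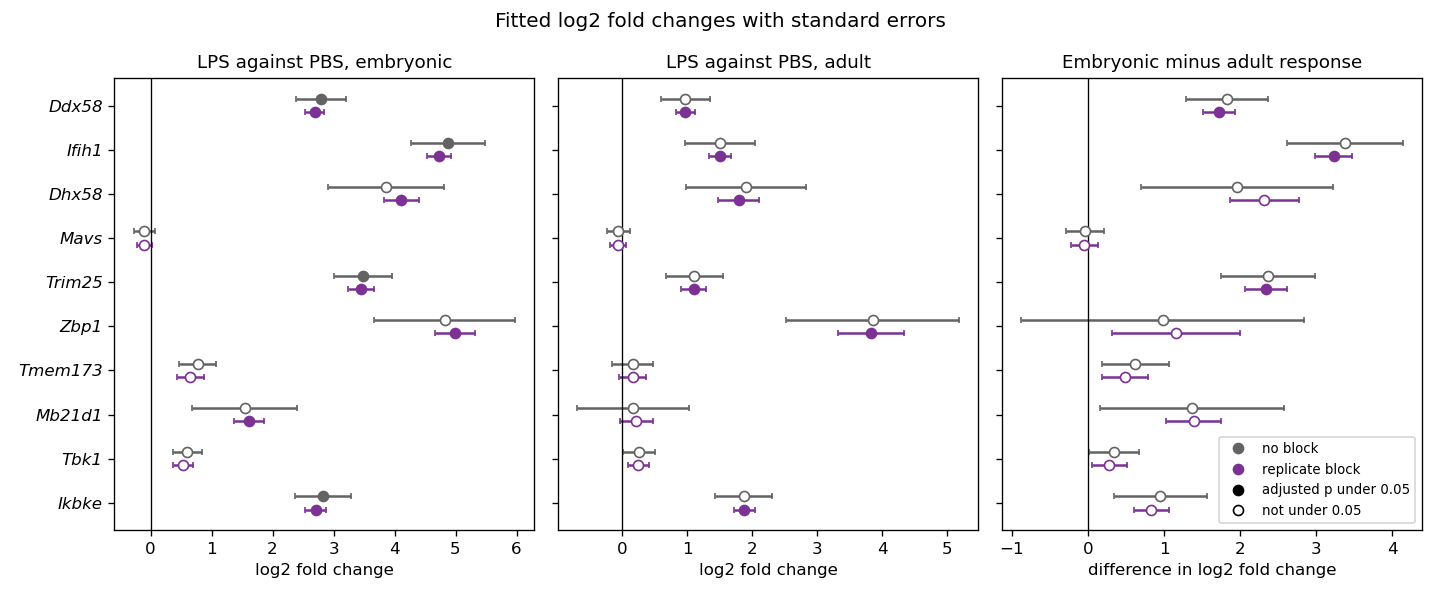
Fitted log2 fold change of each gene with its standard error, for embryonic and adult stroma and for the difference between them, without (grey) and with (purple) the replicate block. Filled points passed an adjusted p of 0.05. With the block 7 embryonic, 6 adult and 3 difference points are filled, and the points move little between the fits while the error bars shorten.

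With PBS, no difference between the stages passed the test. None of the 10 genes was called, where 1.51% of all genes were higher in embryonic stroma (edgeR). Only Zbp1 reached an unadjusted p under 0.05 (log2 fold change 3.08, SE 1.34, adjusted p = 0.234, rank 2416 of 13038 genes by p), and DESeq2 called it. Without embryonic culture 3 of the PBS group this value was 0.88. With LPS, Ifih1 (3.02, SE 0.56, adjusted p = 0.0192) and Trim25 (1.95, SE 0.45, adjusted p = 0.036) were higher in embryonic than in adult stroma, against 3.04% of all genes, and DESeq2 called Ddx58, Dhx58 and Zbp1 as well. The count of 2 fell to 0 with any adult LPS library left out. Over all genes, calls in either direction were 185, 255 and 132 without adult LPS cultures 1, 2 and 3, against 692 with all libraries. The count was 1 (Ifih1) without embryonic LPS culture 3 (348 over all genes) or any adult PBS library (403 to 535). It was 4 without embryonic PBS culture 3 (814 over all genes). All 3 embryonic LPS libraries lay above all 3 adult LPS libraries for Ddx58, Ifih1, Dhx58, Trim25 and Zbp1, that is 5 of 10 genes against 13.4% of all genes.

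Levels of different genes were compared per kilobase of exon (CPM per kb, exons of GENCODE M21 merged for each gene). In embryonic PBS the order was Tbk1 (11.9 ± 1.59, SD, n = 3), Mavs (11.3 ± 2.13), Tmem173 (8.59 ± 0.837), Ddx58 (8.44 ± 2.38), Trim25 (3.42 ± 1.74), Ikbke (2.66 ± 1.09), Ifih1 (1.76 ± 0.99), Dhx58 (0.792 ± 0.97), Mb21d1 (0.61 ± 0.657) and Zbp1 (0.425 ± 0.578). Of the neighbours in this order, only Ddx58 and Trim25 did not overlap between libraries. In embryonic LPS the order was led by Ddx58 (58.5 ± 33), Ifih1 (51.8 ± 42) and Trim25 (38 ± 23), followed by Ikbke (18.9 ± 11.8), Tbk1 (18 ± 7.62) and Tmem173 (14.7 ± 8.18). Zbp1 (12.1 ± 13.3), Dhx58 (11.5 ± 10), Mavs (10.6 ± 2.41) and Mb21d1 (1.78 ± 1.79) were the last 4, and only Mavs and Mb21d1 did not overlap as neighbours. Adult PBS had nearly the embryonic order, from Tbk1 (12.2 ± 0.132) and Mavs (12 ± 1.07) to Dhx58 (0.37 ± 0.0319) and Zbp1 (0.0501 ± 0.0297). In adult LPS, Ddx58 (21.5 ± 5.67) lay above Tbk1 (14.6 ± 1.16) without overlap, and Tmem173 (12.6 ± 1.56), Mavs (11.5 ± 0.498), Ikbke (11.3 ± 1.84) and Trim25 (9.87 ± 1.84) followed, each overlapping the next. Ifih1 was at 6.4 ± 1.2, under all Trim25 libraries, and Dhx58 (1.38 ± 0.74), Zbp1 (0.727 ± 0.224) and Mb21d1 (0.619 ± 0.186) were last.

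The macrophage marker sum was highest in the embryonic culture with the highest levels of most members, but adult stroma differed. Embryonic culture 3, which had the highest sum with PBS and with LPS, was the highest embryonic culture for every member but Mavs under either treatment. In adult stroma with LPS, culture 1 had the highest sum (222 CPM) but the lowest Ddx58, Ifih1, Dhx58, Trim25, Zbp1 and Mb21d1. Without both libraries of embryonic culture 3 and with the block, 7 genes rose in embryonic stroma, where 1049 of 13138 genes were called in either direction. The log2 fold changes were 4.49 for Ifih1 and 2.45 for Ddx58. The difference between the stages passed for Ddx58, Ifih1, Dhx58 and Trim25, against 121 of 13138 genes. Embryonic culture 2, kept in that fit, had sums of 514 and 1140 CPM, above every adult sum. Culture 1 had like macrophage sums in the stages (218 CPM in embryonic LPS and 222 CPM in adult LPS). There Ifih1 was at 118 and 28.2 CPM, Zbp1 at 4.52 and 1.04 CPM, and Ikbke at 28.5 and 35.2 CPM. Each of these values comes from 1 library. Of the 15 macrophage markers, 3 rose and 1 fell with embryonic LPS under the block, and none was called with adult LPS. Their sum is thus not a measure of macrophage content free of treatment. The part of macrophages, or of endothelial cells in adult cultures 2 and 3, in the differences between cultures and stages was not tested.

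**Figure D4:**
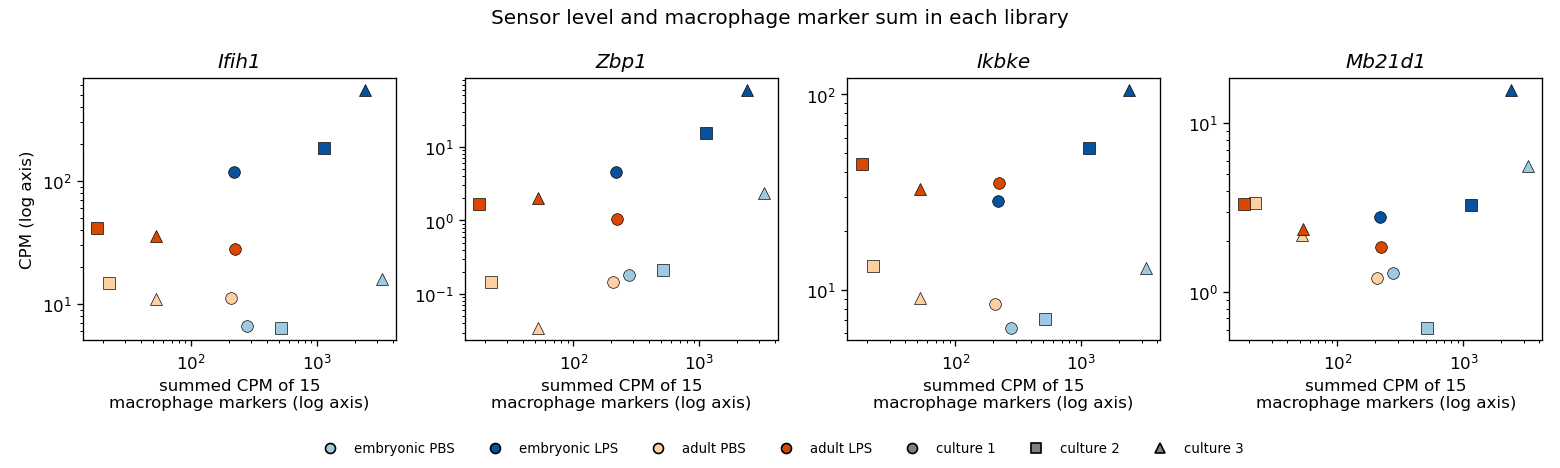
CPM of Ifih1, Zbp1, Ikbke and Mb21d1 against the summed CPM of 15 macrophage markers (log axes) in the 12 libraries. Colours give the group and symbols the culture number. Embryonic culture 3 is at the far right (3240 and 2390 CPM), and the circles of embryonic and adult LPS culture 1 share nearly the same position on the horizontal axis (218 and 222 CPM).

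Across the 12 libraries, log2 CPM of Ddx58, Ifih1, Dhx58, Trim25, Zbp1 and Ikbke ran close together, with Pearson r between 0.884 and 0.986 for each pair. Tbk1 correlated with Tmem173 at 0.867, and Mavs had values of -0.617 to -0.215 with the other 9 genes. These values describe libraries that share treatment and stage. Outside the set, the genes most like Ifih1 were BC006779 (0.99), Tap1 (0.989) and Tor3a (0.988), and those most like Ddx58 were Stat2 (0.99), D14Ertd668e (0.986) and Igtp (0.984). Trim25 was most like Tor3a (0.993), Zc3hav1 (0.988) and Parp12 (0.984), and Dhx58 like Trim30a (0.981), Nlrc5 (0.981) and Mndal (0.978). Zbp1 was most like Gm12250 (0.982), Slfn8 (0.978) and Batf2 (0.977), and Ikbke like Gbp6 (0.983), Gbp5 (0.979) and Slc2a6 (0.976). The nearest genes of the others were less close, at 0.928 to 0.946 for the first of each (Pter for Mavs, D4Ertd22e for Tbk1, Swap70 for Mb21d1 and Abhd16a for Tmem173).

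Partners of the sensors changed in part. Over all genes tested, 2.67% rose in embryonic stroma and 9.43% with the block, and 0.598% and 4.69% in adult stroma, which is the background for the counts of each list. Of 23 tested partners and regulators of RNA sensing, 4 rose in embryonic stroma and 6 with the block, none fell, and the median log2 fold change was 0.06. The largest of the 4 were Ddx60, a helicase related to the sensors (0.71 ± 0.852 CPM in embryonic PBS and 34.1 ± 26.7 CPM in embryonic LPS, log2 fold change 5.57, adjusted p = 0.0141), Zc3hav1, an antiviral zinc finger protein (2.83, adjusted p = 0.0104), and Adar, which edits RNA duplexes (1.9, adjusted p = 0.00816). Trim14 (2.51, adjusted p = 0.362) and Rnf135 (2.1, adjusted p = 0.154) had larger values than Adar and passed only with the block. In adult stroma none passed without the block and 2 passed with it (Ddx60 at 3.78 and Zc3hav1 at 0.94). Of 26 partners and regulators of DNA sensing, 6 rose in embryonic stroma (9 with the block), with a median of -0.01. The 6 were led by the PYHIN family genes Ifi203 (4.9, adjusted p = 0.0374) and Ifi204 (4.54, adjusted p = 0.0359) and by the exonuclease Trex1, which removes cytosolic DNA (3.31, adjusted p = 0.0114). Mndal, of the same family as Ifi203, was at 3.81 (adjusted p = 0.0835) and passed only with the block. None passed in adult stroma, and 6 did with the block, among them Ifi203 (3.64), Trex1 (1.67) and Ifi204 (1.46).

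The relay around the kinases also had calls in adult stroma without the block. Of 21 genes, 5 rose in embryonic stroma (10 with the block) and 3 in adult stroma (6 with the block), against the shares of all genes given for the partners, with medians of 0.36 and 0.32. Irf7, the inducible interferon regulatory factor, was at 2.46 ± 2.31 CPM in embryonic PBS and 133 ± 117 CPM in embryonic LPS (log2 fold change 5.76, adjusted p = 0.00603), and at 4.1 ± 1.24 and 13.7 ± 2.85 CPM in adult stroma (1.73, adjusted p = 0.725, or 0.00468 with the block). Tnfaip3, the deubiquitinase A20, reached 3.26 with embryonic LPS (adjusted p = 0.0171) and 3.08 with adult LPS (adjusted p = 0.052). Tnip1, its binding partner, rose by 1.93 (adjusted p = 0.00578) and 2.3 (adjusted p = 0.00683). Of 6 genes listed around cell death through ZBP1, among them Adar, which acts as a brake on it, 2 rose in embryonic stroma (3 with the block), with a median of 0.41. Mlkl, the executor of necroptosis, rose by 2.97 (adjusted p = 0.0498), and Adar as given above. None of the 6 passed in adult stroma with or without the block.

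Genes listed as output of the pathway moved furthest. Of 9 tested, 8 rose in embryonic stroma and 4 in adult stroma, and all 9 rose in either stage with the block. The paper's introduction describes TLR4, a receptor for LPS, as itself leading to inflammatory cytokines and type I interferons. Whether cytosolic sensing took part in the rise of these genes was not tested. Cxcl10, a chemokine, went from 0.771 ± 0.569 to 2270 ± 2210 CPM in embryonic and from 0.617 ± 0.0407 to 115 ± 17.5 CPM in adult stroma. Ccl5, another chemokine, went from 0.141 ± 0.0453 to 342 ± 358 CPM and from 0.173 ± 0.0717 to 60.3 ± 29.2 CPM. Ifnb1, interferon beta itself, had 0 counts in every PBS library and 38 to 621 counts per library in embryonic LPS and 5 to 34 in adult LPS. Against a floor of 3 counts over the PBS group it was at least 408-fold higher in embryonic and at least 13.4-fold higher in adult LPS. With Ifnb1 at these bounds, the median over the 9 output genes was 9.25 on the log2 scale with embryonic LPS and 4.68 with adult LPS (9.52 and 6.68 as fitted).

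**Figure D5:**
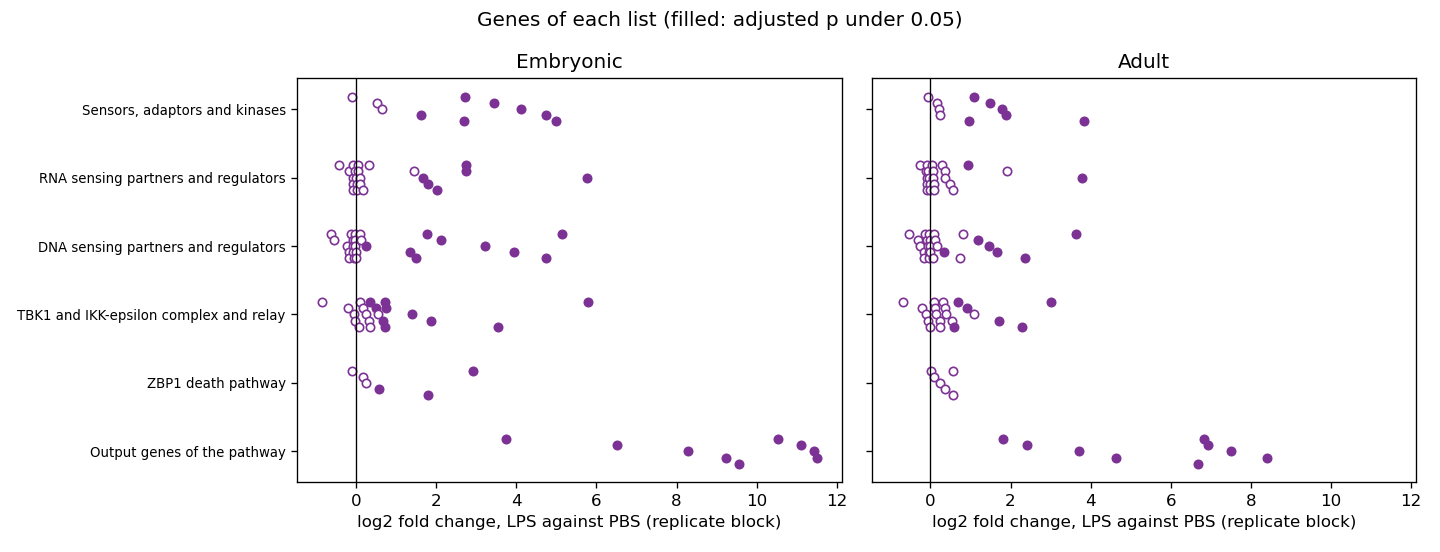
Log2 fold change with LPS (replicate block) of the 10 sensors, adaptors and kinases and of the genes of 5 lists, in embryonic (left) and adult (right) stroma. Each point is a gene, filled where the adjusted p was under 0.05. Most RNA and DNA sensing partners lie near 0. Of 23 and 26, 6 and 9 are filled in embryonic stroma (9.43% of all genes rose) and 2 and 6 in adult stroma (4.69%). All 9 output genes are filled on either side, Ifnb1 being plotted at its fitted value.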

How the data were processed

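Stage, treatment and replicate number came from the labels, with dose and time from the treatment protocol. The authors trimmed reads, mapped them with STAR to GRCm38.p6, kept unique hits with at most 1 mismatch and deposited raw counts per gene for each strand. Counts on the strand of the library chemistry were used; 1.14% to 1.98% lay on the other. Mb21d1 was matched through a RefSeq synonym. The 10 genes, marker lists and pathway lists were chosen with earlier results of these data known. Genes with a CPM above 0.5 in all libraries of a group were tested with the edgeR 4.0.16 quasi-likelihood test (R 4.3.3, TMM, 4 group means) and Benjamini-Hochberg adjustment. DESeq2 1.42.0, a likelihood ratio test, other filters, thresholds and scalings, and left-out libraries were alternatives. The standard error is the absolute log2 fold change over the square root of F. Intervals from counts and the floor cover counting error only.

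The labels do not say that libraries of the same number share a culture. Deviations from the group means of same-numbered PBS and LPS libraries correlated at 0.71 to 0.784 in embryonic and 0.61 to 0.85 in adult stroma, each best with its own number, and deposited file names share a prefix. Across stages the numbers did not pair. The replicate block was therefore set within a stage. Without the block, p-values measure the spread between these 3 cultures a group. With it, differences in level between cultures are removed, and p-values measure the spread of the LPS response between cultures, pooled over the stages.

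Named genes are the 10, the 3 largest called embryonic rises and falls of each list, and the 3 genes with the highest r to each of the 10. Sequences are from RefSeq. The tests were checked on simulated counts. Figures were drawn with Python 3.11.15 and matplotlib 3.10.9.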

Additional observations from a re-analysis of the deposited data

Results flagged for a closer look

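With the replicate block in edgeR, the log2 fold change with LPS differed between embryonic and adult stroma for 3 of the 10 genes by the test of the difference itself. The difference was 3.23 for Ifih1, 2.34 for Trim25 and 1.72 for Ddx58, each larger in embryonic stroma. DESeq2 with the block called Dhx58 as well (2.39, adjusted p = 2.32e-05), where it called 270 of 13038 genes in either direction. Without the block none of the 3 passed the edgeR quasi-likelihood test after adjustment, while DESeq2 and the likelihood ratio test called Ifih1. With any single adult culture left out, the edgeR fit with the block called only Ifih1. Over all genes it then called 34 to 48, against 110 with all cultures.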

How the results depend on the processing

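The values below are log2 fold changes or counts of the 10 genes called. Of 1119 planned repeats, 1032 kept direction and call, 44 gained a call, 22 lost it and 21 changed sign; of 210 added after seeing the data, the numbers were 129, 77, 0 and 4. The replicate block called 7 genes with embryonic LPS, 6 with adult LPS and 3 in the difference between stages, against 4, 0 and 0 without it; over all genes it called 1636, 808 and 110 against 358, 79 and 0. In edgeR it changed no call of Mavs, Tmem173 and Tbk1. Set within a stage it gives no contrast between stages. Called by DESeq2 were 2 genes in adult stroma, 1 in the difference, 1 in PBS between stages and 5 in LPS between stages (over all genes 684, 294, 25, 1552 and 1704 in the 5 comparisons, against 532 and 692 in the last 2 by edgeR); with the block, DESeq2 called 9, 6 and 4 (over all genes 1852, 1029 and 270). The likelihood ratio test called 1 in adult stroma, 1 in the difference and 5 in LPS between stages (over all genes 249, 25 and 1350). In LPS between stages, an adjusted p under 0.01 left 0 and a log2 fold change of at least 2 left 1 (over all genes 96 and 385). The compared groups fitted alone gave 0 for embryonic LPS, 4 for adult LPS and 0 in LPS between stages (over all genes 4, 227 and 70). This was not run for the difference. With a library left out, counts were 2 to 6 in embryonic stroma (2 without embryonic PBS culture 1). They were 0 to 1 in adult stroma (1 without embryonic LPS culture 3) and 0 to 4 in LPS between stages. Over all genes the ranges were 95 to 471, 4 to 145 and 132 to 814. With a culture left out under the block, counts were 7 to 8 in embryonic stroma and 1 to 4 for the difference. In adult stroma they were 3 to 6 (3 without adult culture 1 or 3, 4 without culture 2). Over all genes the ranges were 1049 to 1989 in embryonic stroma, 232 to 1243 in adult stroma and 34 to 164 for the difference.

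The values that changed sign were all uncalled. With the replicate number as a block across stages, Mb21d1 in PBS between stages was -0.23. With a library or a culture left out, the ranges were: in PBS between stages, -0.21 to 0.055 for Mavs, -0.11 to 0.057 for Tbk1, -0.67 to 1.57 for Dhx58, -1.23 to 0.60 for Mb21d1 and -0.61 to 0.008 for Ikbke; in LPS between stages, -0.34 to 0.48 for Tmem173 and -0.13 to 0.47 for Tbk1; in embryonic stroma, -0.29 to 0.064 for Mavs; in adult stroma, -0.12 to 0.009 for Mavs and -0.13 to 0.58 for Mb21d1; and in the difference, -0.23 to 0.13 for Mavs, -0.47 to 3.17 for Zbp1 and -0.08 to 0.52 for Tbk1. The causes were not tested. Depth limits Zbp1 and Dhx58 in PBS, where counts were few.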
